A study of Rattus norvegicus with 30 samples.

Results

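The subject here is a set of 10 genes that mark astrocytes: Gfap, Aqp4, Slc1a2, Slc1a3, Aldh1l1, S100b, Gja1, Glul, Sox9 and Fabp7. They were taken by gene symbol from 21993 genes listed in all, and each symbol matched 1 gene. All 10 had enough reads to be tested in each of the 13 comparisons made, with between 497 and 46383 reads per gene and library.

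The RNA came from primary cultures of hippocampal cells from wild-type Wistar rats at embryonic day 18, grown for 7 days and labelled as hippocampal neurons. The cells received dimethyl fumarate (DMF) at 30 µM, its hydrolysis product monomethyl fumarate (MMF) at 30 µM, cannabidiol (CBD) at 6 µM, or the vehicle of these compounds, for 4 or 24 h. Fumarates were dissolved in dimethyl sulfoxide (DMSO) and CBD in ethanol (EtOH), and every group contained 0.2% of one of these solvents. There were 10 groups with 3 libraries each, numbered 1 to 3, and 30 libraries in all. No group was left without vehicle, and the methods describe no step that removes glial cells from the hippocampal suspension.

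Astrocytes are the glial cells that clear glutamate and potassium from around synapses, pass metabolites and water between blood and neurons, and join one another through gap junctions. In the hippocampus they arise from radial glia, the same progenitors that first give rise to neurons, around birth, and they are often present in cultures of embryonic neurons. When the tissue is injured they become reactive, a state in which the intermediate filament protein GFAP is the most commonly used marker. The comparisons below ask how the mRNA of the astrocyte marker genes moved when a culture set up to study neurons was exposed to each compound.

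Between 15108132 and 25367834 reads per library lay on genes. Levels are given as counts per 1000000 reads on genes (CPM), which are not corrected for the length of the transcript, so they are compared between libraries but not between genes. The summed level of the 10 astrocyte genes lay between 2841 and 7011 CPM, with a median of 5640 CPM. The summed level of 18 neuronal genes, among them Map2 and Snap25, lay between 6535 and 8723 CPM, so RNA of both lists was present in every library. Genes of radial glia and neural progenitors summed to 2262 to 3826 CPM. Radial glia also make Fabp7, so the astrocyte sum is not RNA of astrocytes alone. All 13 microglial genes stayed low, at 1.81 to 21.9 CPM in sum, and 5 of them (Itgam, Cx3cr1, P2ry12, Tmem119 and Ptprc) did not reach 1 CPM in any library. The oligodendrocyte lineage was represented by 521 to 1254 CPM over 14 genes, while Mog, a gene of mature myelinating cells, stayed at or below 0.743 CPM. In bulk RNA, fewer cells of a type and less RNA per cell cannot be told apart, which holds for each result that follows.

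Libraries with replicate number 3 stood apart for these genes. The highest level of S100b in any of the 10 libraries numbered 3 was 194 CPM, and the lowest in the other 20 libraries was 244 CPM. For Gja1 these values were 185 and 273 CPM, so the libraries did not overlap for either gene. In 7 genes (Gfap, Aqp4, Slc1a3, S100b, Gja1, Glul and Fabp7) replicate 3 was the lowest library in 10 of 10 groups, in Slc1a2 it was the lowest in 9, and in Aldh1l1 and Sox9 in 7. Each experiment was repeated 3 times, but the labels do not say what a number marks beyond the replicate, so the numbers were checked against the data. Libraries with the same number deviated together from their group means in every direct comparison of groups. Results are therefore given without and with a term for the replicate number, which is called the replicate block below, wherever the block changed a call.

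**Figure D1:**
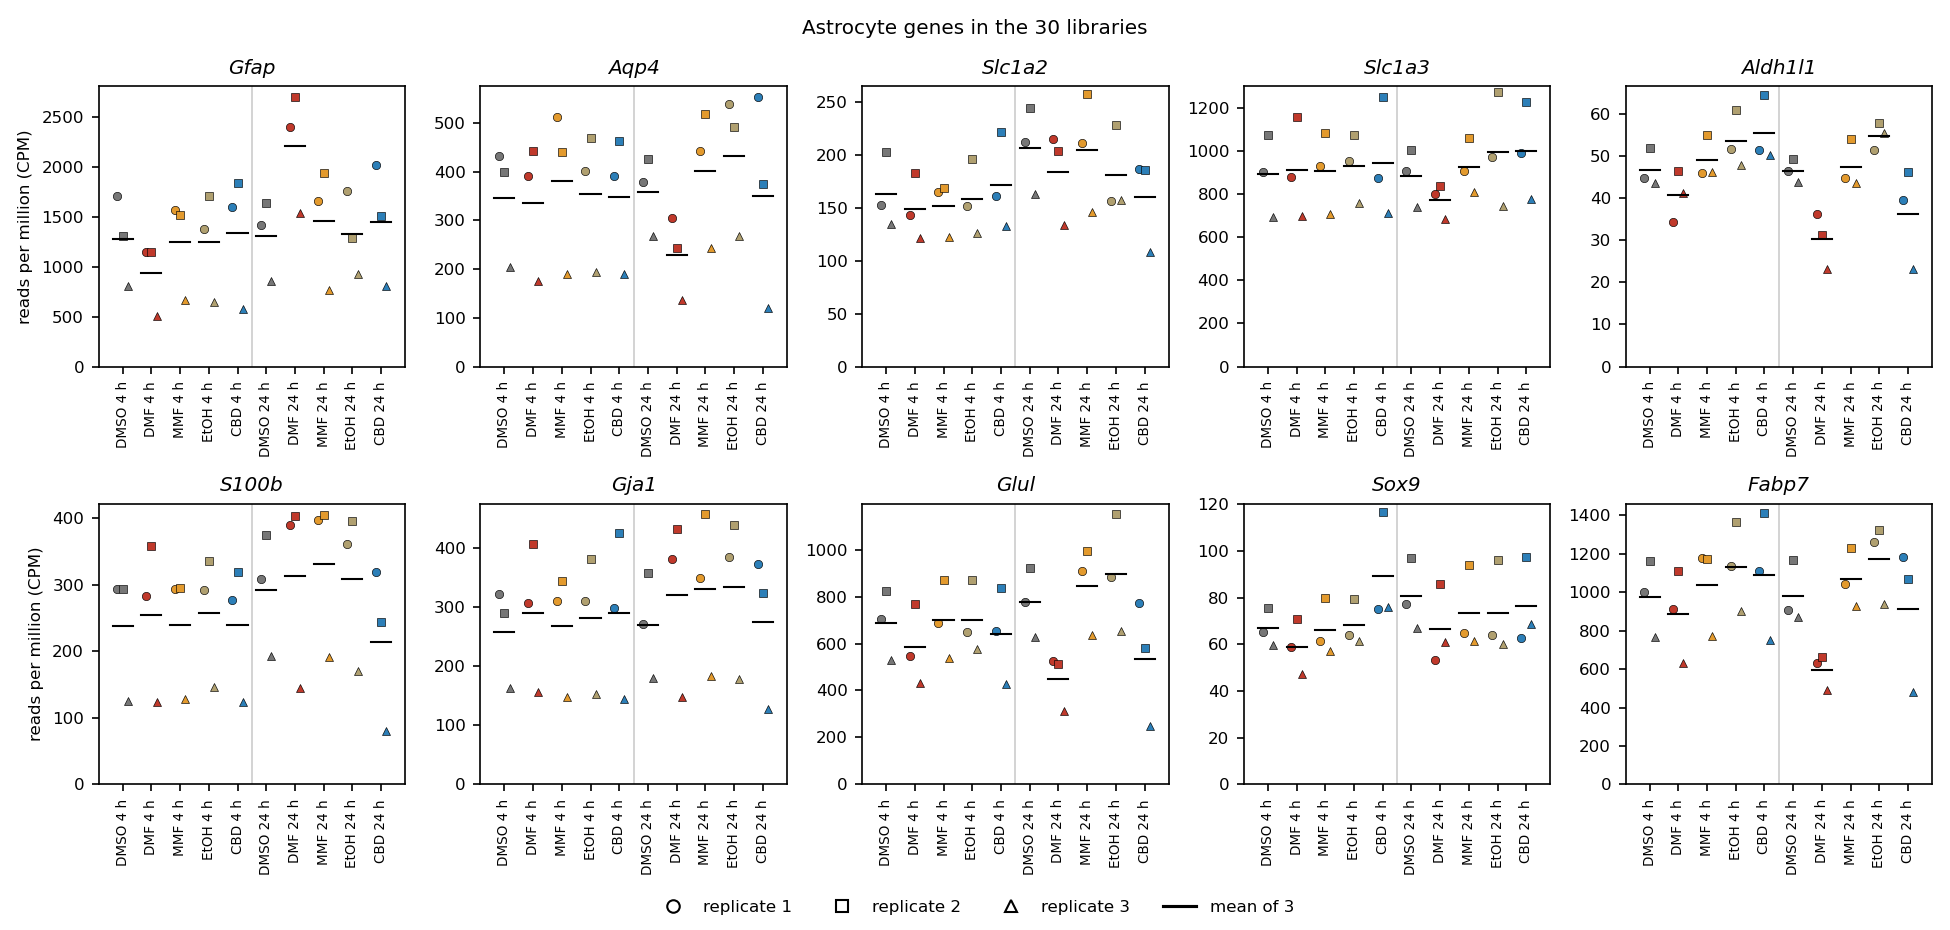
Level of each astrocyte gene in the 30 libraries, in CPM on a linear axis that starts at 0, with circles, squares and triangles for replicates 1, 2 and 3 and a line for the mean of each group. The triangles lie lowest in most groups, Gfap is highest with DMF at 24 h, and Glul, Fabp7 and Aldh1l1 are low there in all 3 libraries.

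The genes belong to several roles. Gfap codes for the filament protein of the astrocyte skeleton (chromosome 10, 87852890 to 87861589 in mRatBN7.2). Aqp4 codes for the water channel of astrocyte end feet (chromosome 18, 6507903 to 6524856), and Gja1 for connexin 43, the main protein of their gap junctions (chromosome 20, 35755991 to 35768582). Slc1a2 (chromosome 3, 89005129 to 89126498) and Slc1a3 (chromosome 2, 57755497 to 57830605) code for the glutamate transporters GLT-1 and GLAST. Glul codes for glutamine synthetase, which turns the glutamate taken up into glutamine (chromosome 13, 66025630 to 66035108). Aldh1l1 codes for a folate enzyme of one-carbon metabolism that is widely used as a marker of the whole astrocyte population (chromosome 4, 123060008 to 123106465). Fabp7 codes for the brain fatty acid binding protein, which radial glia and young astrocytes make (chromosome 20, 37123193 to 37126880). S100b codes for a calcium-binding protein (chromosome 20, 12372881 to 12394743), and Sox9 for a transcription factor that directs the change from neuron to glia production (chromosome 10, 97806485 to 97811994).

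Promoter sequences were read from the RefSeq annotation of the GRCr8 rat assembly, which is another build than that of the gene counts, and 9 of the 10 genes had an entry there. Those of Gfap and of 3 of the 7 genes with values below 0 after 24 h with DMF are shown, as examples of sequence only. Each line gives the 250 bases before the start site in the direction of transcription, and capitals mark CCAAT or its complement ATTGG, the box bound by the factor NF-Y.
Gfap, chr10:88361662-88361911, minus strand: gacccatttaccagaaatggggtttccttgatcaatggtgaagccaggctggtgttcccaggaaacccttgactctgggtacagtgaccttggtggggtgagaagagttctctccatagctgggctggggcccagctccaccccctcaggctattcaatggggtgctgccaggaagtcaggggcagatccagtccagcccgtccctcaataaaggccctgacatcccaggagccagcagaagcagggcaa
Fabp7, chr20:37669356-37669605, plus strand: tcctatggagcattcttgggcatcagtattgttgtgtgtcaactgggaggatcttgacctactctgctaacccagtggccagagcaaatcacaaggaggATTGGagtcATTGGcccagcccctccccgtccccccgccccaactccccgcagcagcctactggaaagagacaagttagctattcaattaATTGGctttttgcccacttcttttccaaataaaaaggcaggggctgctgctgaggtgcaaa
Aldh1l1, chr4:124616970-124617219, plus strand: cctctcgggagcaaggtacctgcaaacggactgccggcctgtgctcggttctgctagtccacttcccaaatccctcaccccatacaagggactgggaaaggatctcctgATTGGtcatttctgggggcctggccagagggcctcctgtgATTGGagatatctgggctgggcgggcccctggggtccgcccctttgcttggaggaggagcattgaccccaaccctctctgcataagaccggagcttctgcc
Glul, second start site, chr13:68575816-68576065, plus strand: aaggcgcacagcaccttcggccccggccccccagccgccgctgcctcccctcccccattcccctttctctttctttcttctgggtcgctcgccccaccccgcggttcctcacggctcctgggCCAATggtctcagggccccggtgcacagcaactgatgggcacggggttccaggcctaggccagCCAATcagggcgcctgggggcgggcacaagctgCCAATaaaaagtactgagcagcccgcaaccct

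Searched on both strands, CCAAT had 3 matches before Fabp7, 2 before Aldh1l1, 3 before the second and 1 before the first start site of Glul, 3 before S100b and 1 before the first start site of Aqp4. It had none before Gfap, Slc1a2, Slc1a3 and Gja1. Of 33469 rat promoters of the same length, 34% held this motif at least once. The core of the antioxidant response element bound by Nrf2, TGACNNNGC, occurs in 10.1% of these promoters, and the STAT element TTCNNNGAA in 7.67%. Neither was found before any of the 9 genes, which says only that these letters are not in these 250 bases. These matches describe sequence and were not tested as binding sites.

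The comparison of DMF with its vehicle at 24 h gave values of opposite sign within the astrocyte genes. Fabp7 fell to 0.603-fold and Aldh1l1 to 0.637-fold of the DMSO level. Glul and Aqp4 had values as low as these, and Gfap was higher in each of the 3 replicate numbers, but these 3 passed the threshold only with the replicate block. The values per library follow, in CPM and in the order of replicates 1, 2 and 3, while fold changes come from the normalized counts of the same libraries.

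Fabp7 was at 907, 1166 and 871 CPM in the DMSO libraries and at 630, 662 and 493 CPM in the DMF libraries after 24 h. Aldh1l1 was at 46.5, 49.2 and 43.8 CPM with DMSO and at 36.3, 31.2 and 23.2 CPM with DMF. Glul was at 778, 920 and 628 CPM with DMSO and at 525, 514 and 314 CPM with DMF. In these 3 genes every DMF library lay below every DMSO library. Groups did not overlap for 22.8% of all genes tested in this comparison, and for 3 of the 10 astrocyte genes.

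Called by limma at an adjusted p under 0.05 were 2 of the 10 astrocyte genes, both lower, against 3.97% of the 13967 genes tested. The log2 fold change was -0.73 ± 0.14 (SE) for Fabp7 (limma, adjusted p = 0.0235) and -0.65 ± 0.14 (SE) for Aldh1l1 (limma, adjusted p = 0.0403). edgeR and DESeq2 called the same 2 genes, while Fabp7 lost the call when all 30 libraries gave the spread (limma, adjusted p = 0.152). For Fabp7 the adjusted p lay above the threshold when replicate 1 of DMSO, replicate 1 of DMF or replicate 2 of DMSO was left out, with a highest limma value of 0.0874 and log2 fold changes between -0.82 and -0.60. Aldh1l1 stayed called only without replicate 1 or replicate 3 of DMF, with log2 fold changes between -0.79 and -0.48 over the 6 omissions. Glul had a log2 fold change of -0.81 with a 95% interval from -1.27 to -0.36 and did not pass without the block (limma, adjusted p = 0.0641).

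With the replicate block 7 of the 10 genes were called, against 12.9% of all genes, 6 of them lower and 1 higher, against 7.1% and 5.81% of all genes in each direction. The one that was higher was Gfap. It was at 1419, 1642 and 857 CPM with DMSO and at 2398, 2699 and 1540 CPM with DMF after 24 h. Replicate 3 with DMF lay below replicate 2 with DMSO, so the groups overlapped, but within each number the DMF library was the higher one, by 0.74, 0.71 and 0.84 on the log2 scale. The log2 fold change of Gfap was 0.76, with an adjusted p of 0.163 in limma without the block and of 4.17e-05 with it. When replicate 3 of DMF was left out, Gfap passed without the block as well, at 1.00 (limma, adjusted p = 0.0251), and so did Glul, at -0.57 (limma, adjusted p = 0.0297).

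Aqp4 was at 379, 426 and 268 CPM with DMSO and at 304, 244 and 137 CPM with DMF, lower within each replicate number. Its log2 fold change was -0.71 (limma, adjusted p = 0.213 without the block and 0.00144 with it). Glul passed with the block as well (limma, adjusted p = 0.00013). Sox9, with a log2 fold change of -0.29, and Slc1a3, with -0.20, passed only with the block (limma, adjusted p = 0.0377 and 0.0325, against 0.462 and 0.455 without it). The block fit was repeated without each replicate number in turn, an alternative added after the data had been seen, and Gfap, Fabp7, Aldh1l1, Aqp4 and Glul were called in all 3 fits. Slc1a3 and Sox9 were each called in 1 of the 3. Of all genes, these fits called 1441 of 14155 without replicate 1, 375 of 13995 without replicate 2 and 2868 of 14064 without replicate 3. With so few libraries in each fit, the p-values lean on a spread pooled over genes.

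The other 3 genes passed in neither fit of all 6 libraries. Each was called in 1 of the 3 block fits without a replicate number: S100b at 0.21 and Gja1 at 0.37 without replicate 3, and Slc1a2 at -0.28 without replicate 1. The fit without replicate 3 called 2868 of 14064 genes of all, the most of the 3, and that without replicate 1 called 1441 of 14155. S100b had a log2 fold change of 0.00 with a 95% interval from -0.85 to 0.85, and its ratio within numbers went from 0.32 in replicate 1 to -0.42 in replicate 3. Gja1 behaved likewise, with 0.47 in replicate 1 and -0.29 in replicate 3 around a log2 fold change of 0.15. Slc1a2 had a log2 fold change of -0.19, with a 95% interval from -0.62 to 0.25. The intervals of these 3 genes leave room for changes as large as that of Slc1a3 in either direction.

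**Figure D2:**
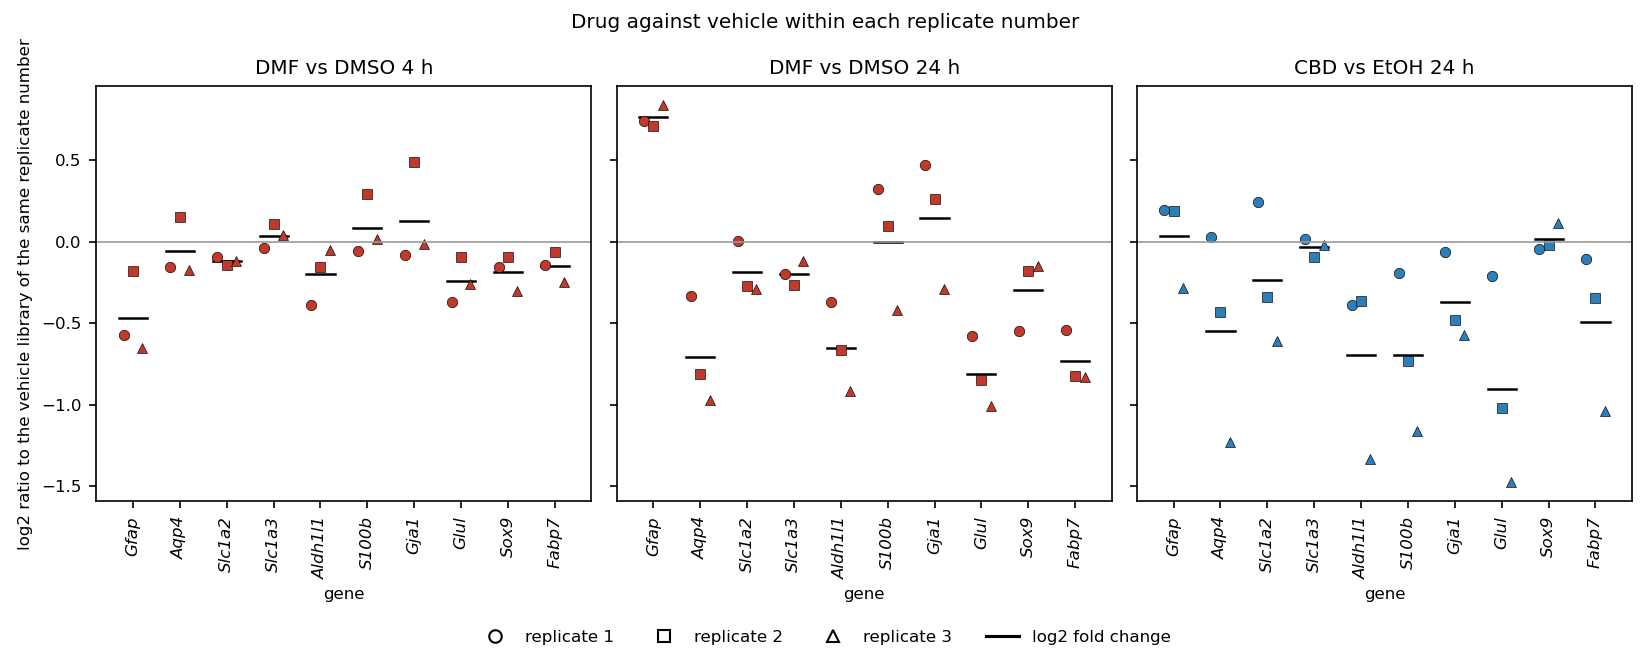
Log2 ratio of each drug library to its vehicle library with the matching replicate number, from normalized counts, for DMF at 4 h, DMF at 24 h and CBD at 24 h, with the fitted log2 fold change as a line. Gfap lies below 0 at 4 h and above 0 at 24 h with DMF in all 3 numbers, and the CBD points at 24 h spread from 0.19 to -0.28 for Gfap and from -0.21 to -1.48 for Glul.

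At 4 h with DMF the same genes showed smaller values, and Gfap had the other sign. None of the 10 was called in limma, edgeR or DESeq2, and none had an unadjusted p under 0.05 in limma, against 3.41% of 14208 genes called. Gfap was at 1706, 1309 and 811 CPM with DMSO and at 1151, 1151 and 504 CPM with DMF. The groups overlapped through replicate 3 of DMSO, while within each number the DMF library was the lower one. The log2 fold change was -0.47 (limma, adjusted p = 0.517), with a 95% interval from -1.26 to 0.33.

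With the block 4 of the 10 were called at 4 h, all lower, against 11.5% of all genes called lower. They were Gfap (limma, adjusted p = 0.000265), Glul with a log2 fold change of -0.24 (adjusted p = 0.00502), Sox9 with -0.18 (adjusted p = 0.0442) and Fabp7 with -0.15 (adjusted p = 0.0454). In the block fits without 1 replicate number, Gfap and Glul were called in all 3, Sox9 in 2 and Fabp7 in 1. Those fits called 1636 of 14329 to 3474 of 14339 genes of all. No gene of the set had groups that did not overlap at 4 h, against 26.3% of all genes.

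The change from 4 to 24 h was tested as the difference between the DMF effects at both times, in 12 libraries. Without the block none of the 10 differed in limma, against 4.12% of 14432 genes, and 2 (Gfap and Aldh1l1) had an unadjusted p under 0.05. With the block 4 differed, against 13.2% of all genes. For Gfap the DMF effect at 24 h was greater than that at 4 h, with a log2 difference of 1.23 (limma, adjusted p = 0.193 without the block and 0.000135 with it). For Aqp4 the difference was -0.65 (adjusted p = 0.561 and 0.014 in the same order), for Fabp7 -0.58 (0.277 and 0.0029) and for Glul -0.57 (0.383 and 0.0049). The Gfap difference was called in all 3 block fits that left out a number, that of Fabp7 in 2, and those of Aqp4 and Glul in 1 each. Those fits called 557 of 14513 to 1406 of 14574 genes of all.

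With MMF none of the 10 genes was called by limma at either time, with or without the block. DMF carries a methyl ester on both acid groups of fumarate and MMF on one of them, and both were used at 30 µM. Against DMSO at 4 h, MMF called none of the 10 genes and none of 14032 genes, 0% by limma, and 36 genes of all had an unadjusted p under 0.05. edgeR and DESeq2 also called none there. At 24 h it called none of the 10, against 0.00707% of 14137 genes, and none of the 10 had an unadjusted p under 0.05 at either time. Without the block, edgeR and DESeq2 called members of the set only in the 24 h comparisons of DMF with DMSO and with MMF. With the block limma called none of the 10 for MMF at 24 h, against 1.38% of all genes, while edgeR with the block called Gja1, with a log2 fold change of 0.24 (edgeR, adjusted p = 0.0353). Fabp7 was at 1043, 1230 and 929 CPM with MMF at 24 h, Gfap at 1660, 1942 and 763 CPM, and Glul at 911, 994 and 636 CPM, each overlapping the DMSO libraries given above. The log2 fold changes of the 10 genes at 24 h lay between -0.16 for Sox9 and 0.23 for Gja1. The 95% interval reached from -0.19 to 0.41 for Fabp7, from -0.19 to 0.21 for Aldh1l1 and from -0.70 to 0.87 for Gfap, which narrowed to -0.05 to 0.22 with the block.

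Both compounds were then compared directly, 2 comparisons at matched dose and time that use the same DMF libraries as the comparisons with DMSO. At 24 h Fabp7 was called lower with DMF than with MMF, with a log2 fold change of -0.84 ± 0.13 (SE) (limma, adjusted p = 0.0127), 1 of 10 genes against 3.56% of 14233 genes. Fabp7 lost this call without replicate 1 of MMF (limma, adjusted p = 0.0715) and when all 30 libraries gave the spread (limma, adjusted p = 0.0849). Fabp7, Glul and Aldh1l1 had groups that did not overlap, as had 22.7% of all genes. Glul had a log2 fold change of -0.92 (limma, adjusted p = 0.0617) and Aldh1l1 of -0.66 (adjusted p = 0.0589), and DESeq2 called both beside Fabp7. In limma Aldh1l1 passed when replicate 1 or 3 of DMF was left out, and Glul when replicate 3 of MMF was.

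With the block 6 genes differed between DMF and MMF at 24 h, against 12.2% of all genes. The log2 fold change of Gfap was 0.68 (limma, adjusted p = 0.348 without the block and 0.0016 with it). Aqp4, with a log2 fold change of -0.81, Fabp7, Glul, Aldh1l1 and Slc1a3, with -0.25, were lower. At 4 h none of the 10 differed without the block, against 1.61% of 14200 genes, and 4 did with it, against 11.6% of genes called lower. These were Gfap (-0.39), Aldh1l1 (-0.26), Glul (-0.25) and Fabp7 (-0.22), all lower with DMF. For the remaining genes the difference between the esters at 24 h had intervals from -1.05 to 0.88 for Gja1, from -1.07 to 0.79 for S100b, from -0.65 to 0.37 for Slc1a2 and from -0.59 to 0.32 for Sox9, so equal responses were not shown.

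**Figure D3:**
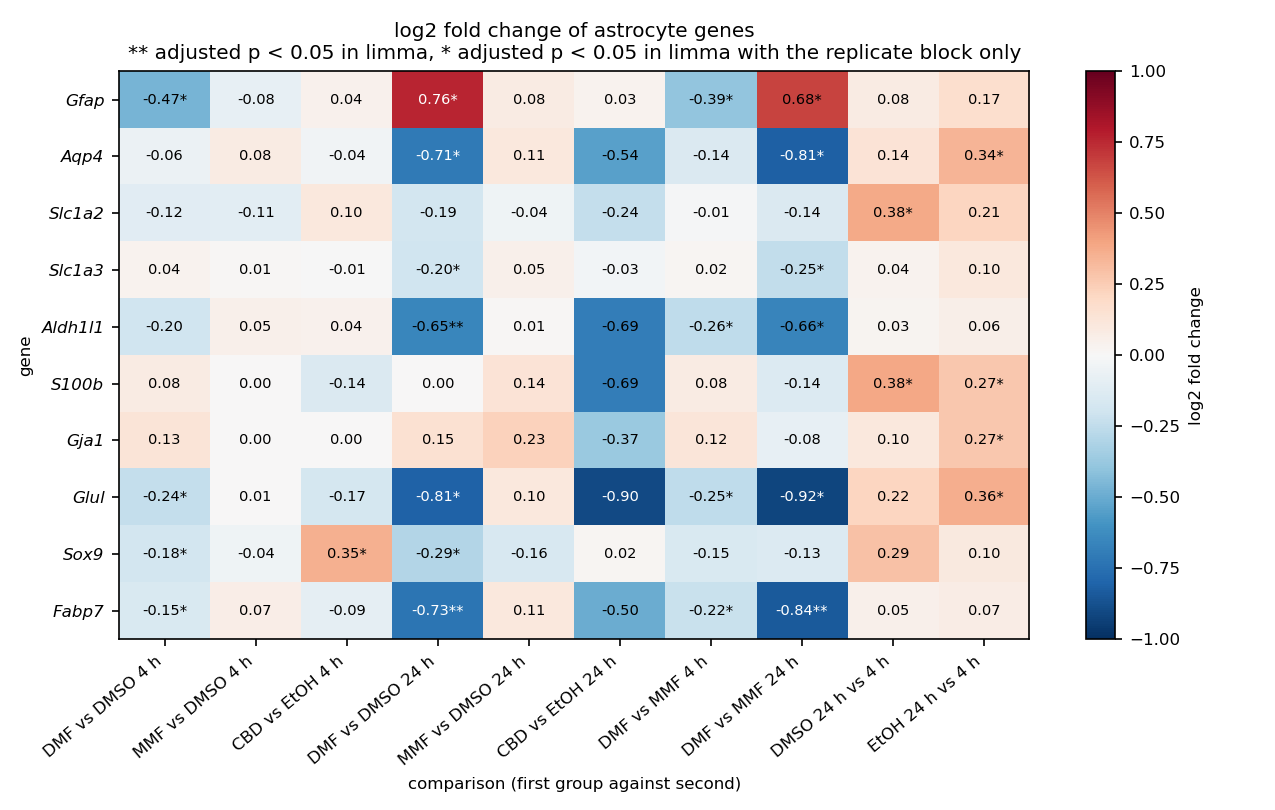
Log2 fold changes of the 10 astrocyte genes (rows) in the 10 direct comparisons (columns), first group against second, with colour from -1 to 1. A double star marks an adjusted p under 0.05 in limma and a single star one reached only with the replicate block, and only Fabp7 and Aldh1l1 carry double stars.

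CBD against ethanol gave low values for several astrocyte genes at 24 h that differed widely between replicates. None of the 10 was called in limma, edgeR or DESeq2, or in limma with the block, against 0.114% of 14079 genes without and 0.504% with the block, and 2 (Aldh1l1 and Glul) had an unadjusted p under 0.05 in limma. Glul was at 884, 1149 and 655 CPM with EtOH and at 772, 582 and 248 CPM with CBD. S100b was at 362, 395 and 171 CPM with EtOH and at 320, 244 and 80.8 CPM with CBD, and Aqp4 at 539, 491 and 267 CPM against 554, 373 and 120 CPM. In all 3 genes the ratio was nearest to 0 in replicate 1 and lowest in replicate 3, with log2 ratios of -1.48 for Glul, -1.16 for S100b and -1.23 for Aqp4 in replicate 3. Aldh1l1 was at 51.3, 57.9 and 55.3 CPM with EtOH and at 39.5, 46.1 and 23.2 CPM with CBD, and was the only one of the 10 whose groups did not overlap, against 15.9% of all genes.

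The log2 fold change of Glul with CBD at 24 h was -0.90 (limma, adjusted p = 0.506) with a 95% interval from -1.79 to -0.01, and that of Aldh1l1 was -0.69 (adjusted p = 0.428). Without the CBD library of replicate 3 the value of Aldh1l1 was the nearest to 0 of its 6 omissions, at -0.40, and that of Glul as well, at -0.42. The median over the 10 genes was -0.43, against -0.0047 over all genes tested, and 8 of 10 values lay below 0. That replicate 3 library was the lowest of all 30 in the summed level of the 10 genes, at 2841 CPM, against 4157 CPM in the EtOH library of the same number. Its neuronal genes summed to 7138 CPM and its oligodendrocyte lineage genes to 605 CPM, against 8723 and 772 CPM in that EtOH library. Its reactive astrocyte genes summed to 1412 CPM against 656 CPM. Genes of radial glia and neural progenitors, a list that shares Nes and Vim with the reactive one, summed to 3425 against 2356 CPM in the same libraries. The part of these lists in the result was not tested.

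At 4 h CBD called none of the 10 without the block, against 0.00705% of 14193 genes. Sox9 was at 64.2, 79.5 and 61.3 CPM with EtOH and at 75, 117 and 76 CPM with CBD, higher in each replicate number. Its log2 fold change was 0.35 (limma, adjusted p = 1 without the block and 0.00208 with it), and it was 1 of 10 genes called with the block, against 2.33% of all genes. At 24 h its log2 fold change was 0.02. The CBD effect at 24 h minus that at 4 h was below 0 in all 10 genes, from -0.73 for Aldh1l1 to -0.01 for Gfap, and none passed in limma with or without the block, where 0.0552% and 0% of 14503 genes did. Aldh1l1 alone had an unadjusted p under 0.05 there.

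Time alone, in the vehicles, gave small positive values. In DMSO none of the 10 genes passed at 24 against 4 h and none of 13968 genes did, 0% by limma and edgeR, with 1362 genes at an unadjusted p under 0.05 in limma and 48 called by DESeq2. In EtOH none of 14155 genes passed, 0% by limma, edgeR and DESeq2, with 391 at an unadjusted p under 0.05 in limma. All 10 values lay above 0 in both vehicles, with a median log2 fold change of 0.12 in DMSO and 0.19 in EtOH, against 0.00 over all genes. With the block Slc1a2 and S100b passed in DMSO, both at 0.38, and Glul (0.36), Aqp4 (0.34), S100b and Gja1 (both 0.27) passed in EtOH. These are 2 of 10 genes called higher against 1.1% of all, and 4 of 10 against 0.657% of all. S100b was the one gene that passed with the block in both vehicles.

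The levels of each gene over the 10 groups can be ordered by group means, most of which do not differ beyond their spread. Gfap was highest with DMF at 24 h, at 2212 ± 601 CPM (SD, n = 3), and lowest with DMF at 4 h, at 935 ± 373 CPM, while the other 8 means lay between 1243 and 1455 CPM. Glul, Fabp7, Aqp4 and Aldh1l1 were all lowest with DMF at 24 h, at 451 ± 119, 595 ± 90, 228 ± 84.8 and 30.3 ± 6.57 CPM (SD, n = 3). Glul, Fabp7 and Aqp4 were highest with EtOH at 24 h, at 896 ± 247, 1174 ± 206 and 432 ± 145 CPM, and Aldh1l1 with CBD at 4 h, at 55.4 ± 7.95 CPM. Slc1a3 was lowest with DMF at 24 h as well, at 773 ± 80.4 CPM. Sox9 was lowest with DMF at 4 h, at 59 ± 11.7 CPM, and highest with CBD at 4 h, at 89.3 ± 23.8 CPM. The group means of Gja1 lay between 259 and 335 CPM and those of S100b between 215 and 332 CPM, ranges no larger than the largest SD within a group, which was 152 and 145 CPM in turn.

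Over the 30 libraries, the variation of each gene on the log2(CPM + 1) scale was split into the part between replicate numbers, the part between groups and the rest. For the 10 astrocyte genes the median was 66.4% between replicate numbers and 24.3% between groups, while over 14930 genes it was 16% and 45%. Gja1, with 91% between numbers and 4.01% between groups, stood at one end. Aldh1l1, with 16.6% and 66.3%, stood at the other, and Fabp7 and Glul followed it with 43.4% and 41.3% between groups. The high share between numbers rests on replicate 3: without it the median of the 10 genes fell to 13.4% between numbers and was 73.2% between groups. Further astrocyte genes had a median of 67.2% between numbers for 17 transport, channel and junction genes, 59.1% for 24 genes of metabolism and lipid and 49.6% for 23 secreted and surface genes, while it was 16.3% for 25 reactive astrocyte genes, 35.7% for 18 neuronal and 8.61% for 12 proliferation genes.

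**Figure D4:**
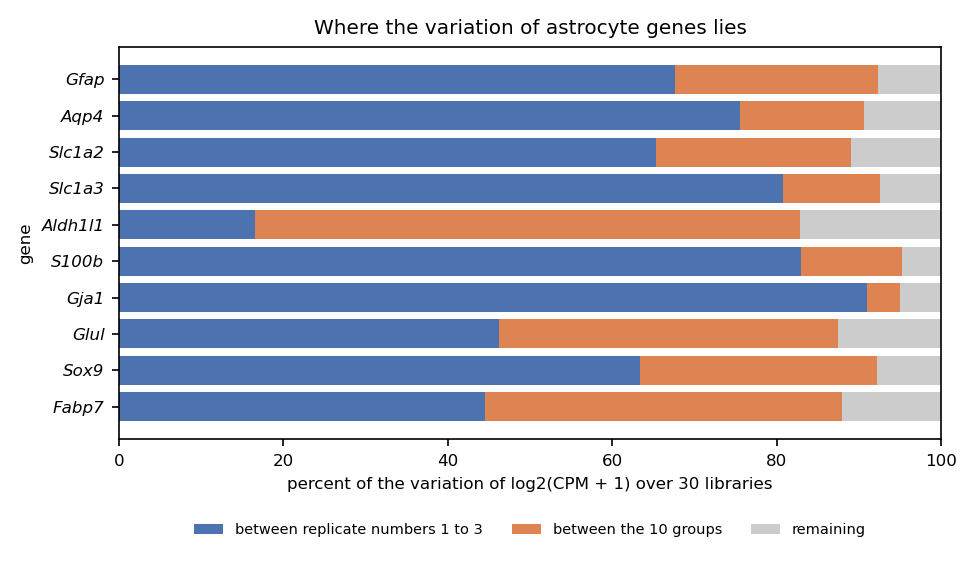
Percent of the variation of log2(CPM + 1) over 30 libraries that lies between replicate numbers (blue), between the 10 groups (orange) and in the rest (grey), for each astrocyte gene. Aldh1l1 is the gene with the largest share between groups and Gja1 the one with the largest share between replicate numbers.

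Genes with the most similar pattern were ranked by their Pearson correlation, over 30 libraries, with the mean of the 10 standardized astrocyte genes. Given as a description, since libraries share numbers and groups, among the highest were S100a16 (0.968), Tst (0.961), Glud1 (0.959), Kcne5 (0.958), Gatm (0.957), Acsbg1 (0.953), Tril (0.952), Ndrg2 (0.952) and Ptn (0.949). Glud1 codes for glutamate dehydrogenase, which acts on the glutamate that astrocytes take up. After the mean of each replicate number had been removed, Sec14l2 (0.873), Wipf3 (0.862), Glud1 (0.86), Tst (0.851), Stum (0.843), Myorg (0.843), Cxcl14 (0.835), Pfkm (0.832), S100a16 (0.832) and Acsf2 (0.83) led, and Glud1, Tst and S100a16 were in both lists. With the number means removed, Gfap had the lowest correlation with the mean of the other 9 astrocyte genes, at -0.09. Sox9 (0.175) and Slc1a3 (0.294) were also low there, while Glul was at 0.813, Aqp4 at 0.784 and Fabp7 at 0.689. As measured, Gfap was at 0.634, above Sox9 (0.592) and Aldh1l1 (0.574).

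A further 66 astrocyte genes outside the 10 were followed at 24 h with DMF, and their values also went both ways. Of 64 tested, 4 were called higher and 4 lower in limma, against 1.88% and 2.09% of all genes. With the block 11 were higher and 9 lower, against 5.81% and 7.1% of all genes. Among the genes of transport, Slc13a3 (-1.39), a dicarboxylate transporter, Slc7a10 (-1.04), which carries serine and glycine, and Slc6a11 (-0.36), a GABA transporter, fell. Slc7a11 (2.17), the cystine and glutamate exchanger that is a known Nrf2 target, rose. Among the genes of metabolism and lipid, Pla2g7 (1.93), Ephx1 (1.37), an epoxide hydrolase, and Scd (0.95), a fatty acid desaturase, rose and none fell. Of the secreted and surface genes Ttyh1 (-0.69), a membrane protein of the tweety family, fell alone. The medians of the 3 groups of genes were -0.01, -0.08 and -0.02, against -0.01 over all genes and -0.24 for the 10 astrocyte genes. Slc6a11, Pla2g7 and Ttyh1 lost the call in some fits without 1 library and Slc7a11 in 1 of 6, while Slc13a3, Slc7a10, Ephx1 and Scd kept it in 6 of 6.

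Genes of reactive astrocytes, 28 in the list and 22 tested, had 19 values above 0 and a median of 0.33 at 24 h with DMF. Cd44 (1.60), a hyaluronan receptor, and Gbp2 (1.05), an interferon-induced GTPase, were called higher in limma, against 1.88% of all genes. Gbp2 lost the call in all 6 fits without 1 library. With the block 6 of 22 were called, all higher, against 5.81% of all genes called higher. At 4 h the median was -0.21 with 16 of 24 values below 0: Tgm1 (1.68), C3 (1.61), the central complement component, and Fkbp5 (0.62), a target of the glucocorticoid receptor, were called higher, and Ptx3 (-0.93), a pentraxin, lower. Of all genes 3.41% were called in limma at 4 h. Tgm1 and Fkbp5 kept the call in 5 of 6 fits without 1 library, Ptx3 in 3 and C3 in 1. The difference between the effects at both times was called for Cd44 (2.15), Gbp2 (1.97), Ptx3 (0.95), Fkbp5 (-0.60) and Tgm1 (-1.35), where 4.12% of all genes were called. All but Tgm1, with 3, were called in 10 or more of the 12 fits without 1 library. In the DMSO libraries themselves 21 of 22 values of this list lay below 0 from 4 to 24 h, with a median of -0.41. Without the block none was called, nor was any of all genes. With it 4 were called lower, against 205 of 13968 genes called in either direction, 153 of them higher.

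Of 18 transcription factors of glia, Id1 (1.45) and Atf3 (2.25) were called higher at 24 h with DMF, and Hes5 (-1.13) and Sox8 (-0.46) lower. Of all genes 1.88% were called higher and 2.09% lower. Hes5 is an effector of Notch signalling in radial glia and Sox8 a close relative of Sox9. Id1 and Hes5 kept the call in 6 of 6 fits without 1 library, Sox8 in 4 and Atf3 in 3. Stat3, the factor that activates the Gfap promoter in astrocytes, was called lower at 4 h, with a log2 fold change of -0.35, a call that was lost in all 6 fits without 1 library. Its DMF effect at 24 h exceeded that at 4 h by 0.77 (limma, adjusted p = 0.0142).

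**Figure D5:**
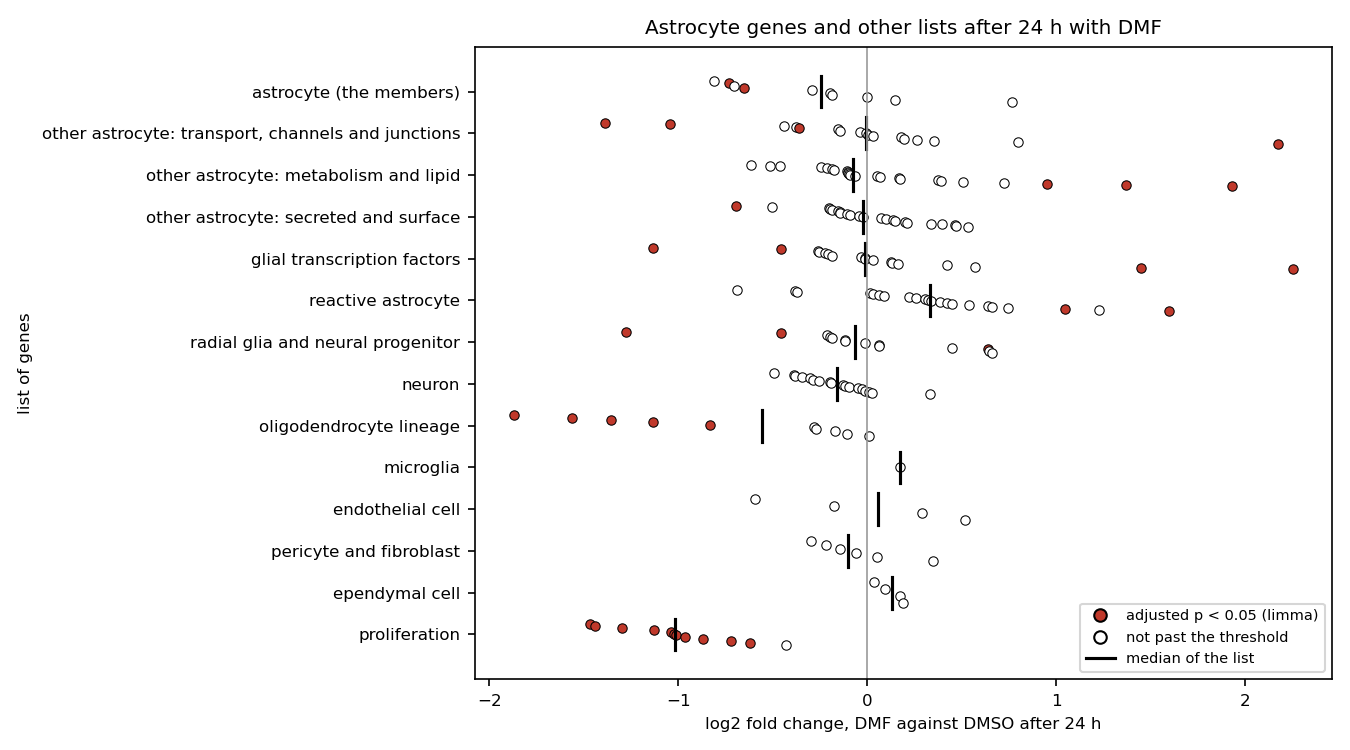
Log2 fold change of each gene of 14 lists, DMF against DMSO after 24 h, with filled points for an adjusted p under 0.05 in limma and a line for the median of each list. The 10 astrocyte genes spread from -0.81 to 0.76, the proliferation and oligodendrocyte lineage lists lie mostly below 0, and the reactive astrocyte list mostly above.

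Genes of other cell types moved with the DMF result at 24 h. Without the block 2.09% of all genes were called lower and 1.88% higher. Of 12 proliferation genes 11 were called lower, among them Top2a (-1.47), Ccna2 (-1.44) and Cdk1 (-1.30), and their summed level was 171 to 207 CPM with DMF and 364 to 386 CPM with DMSO. Of 14 oligodendrocyte lineage genes, 10 were tested and 5 called lower, namely Gpr17 (-1.87), Pdgfra (-1.56), Sox10 (-1.36), Cspg4 (-1.13) and Bcas1 (-0.83). These 5 mark progenitors and early stages of the lineage, and Bcas1 kept its call in 4 and Gpr17 in 2 of 6 fits without 1 library. The list summed to 674 to 808 CPM with DMF and 827 to 1033 CPM with DMSO. Of 15 genes of radial glia and neural progenitors, 14 were tested, Eomes (-1.27) and Dll1 (-0.46) were called lower and Tnc (0.64) higher, each in 2 of 6 such fits. None of 18 neuronal genes was called without the block and 8 were with it, 7 of them lower, against 12.9% of all genes called and 7.1% called lower, with a median of -0.16. Microglial genes summed to 3.14 to 5.5 CPM with DMF and 1.81 to 2.82 CPM with DMSO, with Cx3cr1, P2ry12 and Tmem119 below 1 CPM throughout. The part of these lists in the change of Fabp7, which progenitors also express, and of the other astrocyte genes was not tested.

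Endothelial genes were at 62.5 to 86.8 CPM in sum over all libraries, with Cldn5 not listed and Cdh5 and Flt1 below 1 CPM. Those of pericytes and fibroblasts were at 42.3 to 133 CPM, with Rgs5 below 1 CPM, and those of ependymal cells at 7.4 to 18.6 CPM, with Foxj1 not listed. None of these 3 lists had a gene called at 24 h with DMF. At 4 h Pdgfrb (-1.26) was called lower, in 4 of 6 fits without 1 library as well, and so were the neuronal genes Tubb3 (-0.64) and Neurod6 (-0.46), both of which lost the call in all 6.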

How the data were processed

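RNA-seq of 30 libraries was used. Per the study's methods and the labels, reads were checked with FastQC 0.12.1, trimmed with cutadapt 4.4 and Trimmomatic 0.39, aligned to mRatBN7.2 with HISAT2 2.2.1, counted per Ensembl gene with HTSeq 2.0.3 and normalized with DESeq2 1.40.2. The strand setting of the counting is not given in the sources used here, so reads of overlapping antisense genes may be included. The authors deposited, per pair of groups, normalized counts (signal values divided by size factors), of which 10 of 19 tables were used. The deposited fold change and p-value columns were not used.

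The values are whole multiples of what 1 read is worth, so whole reads were recovered for 100% of values (tolerance 0.001 reads), and 0 of 619299 values differed between tables. Library depth was 15108132 to 25367834 reads on genes, which limits the precision for low genes. The main test was limma 3.58.1 (moderated test with trend, R 4.3.3) on log2(normalized count + 1), so fold changes of low genes are understated, in the 6 libraries of each pair of groups. Genes were filtered by edgeR's filterByExpr, and the Benjamini-Hochberg adjustment covered every gene tested (threshold 0.05). For 3 interactions 12 libraries were scaled together by median-ratio size factors. An exact permutation test of 3 against 3 libraries cannot go below 0.1 and was not used. Cultures behind the replicates are not named in the labels, so p-values measure the spread between these libraries, which may be technical. No pair of libraries agreed within sampling noise.

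Alternatives were DESeq2 1.42.0 and edgeR 4.0.16 on the recovered reads, no filter, the replicate block, a spread from all 30 libraries, a pseudocount of 0.1, TMM scaling and leaving out each library. Same-numbered libraries of the groups compared deviated together from their group means, with correlations from 0.0974 to 0.668 over 84 pairs, against -0.577 to 0.288 for different numbers. The minimum of 0.1 was missed by 1 pair, in the MMF interaction, where the numbers were not taken to pair the libraries. The scripts were tested on simulated data for DMF against DMSO at 24 h (13975 genes, 197 of them changed by 1 on the log2 scale). There limma recovered 82.7% and 9.94% of its calls were false, and with the block 82.2% and 11.5%. For the DMF interaction limma recovered 62.8% without and 59.8% with the block. The simulated counts held no effect shared by a replicate number, so they do not show how the block behaves with such an effect.

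The members and gene lists were chosen with earlier results of these data known. Named were all 10 members and, per list and comparison, up to 5 called genes with the smallest p, and the 10 genes most similar to the member mean, of which 1 is not reported here.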

Additional observations from a re-analysis of the deposited data

Results flagged for a closer look

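For 4 of the 10 astrocyte genes the effect of DMF differed between 24 and 4 h in a test of the difference itself, limma's interaction in 12 libraries with the replicate block. The difference was 1.23 on the log2 scale for Gfap, -0.65 for Aqp4, -0.58 for Fabp7 and -0.57 for Glul. With the block 13.2% of all genes differed. In the block fits without 1 replicate number Gfap was called in all 3, Fabp7 in 2, and Aqp4 and Glul in 1 each. Those fits called 557 of 14513 to 1406 of 14574 genes of all. Without the block none of the 4 passed, as given above. For MMF and CBD none of the 10 genes differed between the times with or without the block.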

How the results depend on the processing

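Without the replicate block, the number of the 10 astrocyte genes called was the same in limma without a filter, with a pseudocount of 0.1 and with TMM scaling, and in edgeR. DESeq2 called 3 in place of 1 for DMF against MMF at 24 h. With the spread from all 30 libraries 1 was called in place of 2 for DMF against DMSO at 24 h and 1 in place of 0 for CBD at 24 h, Aldh1l1 in both. Over fits without 1 library or 1 replicate number, with and without the block, the number called lay between 0 and 9 for DMF against DMSO at 24 h, 0 and 6 for DMF against DMSO at 4 h, 0 and 6 for DMF against MMF at 24 h, and 0 and 5 for the DMF interaction. Calls over all genes moved as well. Block fits without a replicate number called 375 of 13995 to 2868 of 14064 genes for DMF against DMSO at 24 h. At 4 h they called 1636 of 14329 to 3474 of 14339. For DMF against MMF at 24 h the calls were 890 of 14269 to 2738 of 14237, and for the DMF interaction 557 of 14513 to 1406 of 14574. The cause was not tested. For DMF against DMSO at 24 h with the block, S100b was called at 0.21 and Gja1 at 0.37 without replicate 3 but had values of -0.16 and -0.01 without replicate 1.

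With the replicate block, limma called 4 of the 10 genes for DMF against DMSO at 4 h, 7 at 24 h, 4 and 6 for DMF against MMF at 4 and 24 h, 4 for the DMF interaction, 1 for CBD at 4 h, 2 for time in DMSO and 4 for time in EtOH. edgeR with the block, added after the data had been seen, called 4, 7, 4, 6, 4, 1, 1 and 4 in the same order, and 1 for MMF at 24 h. In limma the block changed no other count of called members. Over all genes it raised the calls from 485 to 3274 for DMF at 4 h, 554 to 1803 at 24 h, 229 to 3347 and 506 to 1740 for DMF against MMF, 594 to 1904 for the DMF interaction, 16 to 71 for CBD at 24 h, 1 to 330 at 4 h, 1 to 195 for MMF at 24 h, 0 to 8 for the CBD interaction, and 0 to 205 and 0 to 148 for time in DMSO and EtOH. DESeq2 called 1024, 850, 744, 835 and 993 genes in the DMF comparisons in that order, 161 and 18 for CBD, 8 for MMF at 24 h and 17 for the CBD interaction. With the spread from all 30 libraries 1536 and 1403 genes were called for DMF at 4 h against DMSO and MMF, and 425 for CBD at 24 h.

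The median share of variation between replicate numbers was 13.4% to 70.3%, and that between groups 24.2% to 73.2%, when 1 replicate number was left out, with 13.4% and 73.2% without replicate 3. TMM scaling gave 64.6% and 26.4%.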

Other observations

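With CBD at 24 h, 2 neuronal genes and 1 astrocyte gene outside the 10 were called by limma, against 0.114% of 14079 genes. Gad2 and Gad1, which code for the enzymes that make GABA, were lower, with log2 fold changes of -0.84 ± 0.08 (SE) (limma, adjusted p = 0.0104) and -0.81 ± 0.08 (SE) (limma, adjusted p = 0.0134). Mt2A, a metallothionein that astrocytes make, was higher, with 6599 ± 1225 normalized counts with CBD and 983 ± 396 with EtOH (SD, n = 3). Each kept its call in 2 or 3 of 6 fits without 1 library. Of 64 further astrocyte genes tested there, 49 had values below 0.

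MMF at 24 h had 50 of 64 further astrocyte genes above 0, and 9 of them were called with the block, all higher, against 1.38% of all genes called in either direction. None was called without it, where 1 gene of all was called.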
